A study of Canis lupus familiaris with 6 samples.

Results

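The genes of soluble guanylate cyclase and cGMP signalling described here are 9 of the 15115 genes that have a probe set with a single gene symbol. They are the subunits GUCY1B1, GUCY1A1 and GUCY1A2 (the first and second written GUCY1B3 and GUCY1A3 in older annotation), the receptors NPR1, NPR2 and NPR3, the kinases PRKG1 and PRKG2, and PDE5A. Every probe set whose only symbol was one of these was taken, which gave 19 of 42924 probe sets other than controls. The family was chosen by the measured difference of GUCY1B1 between the groups in these same arrays. The values of the members in that contrast are therefore given as a description: neither their intervals nor their place against the threshold is evidence for a difference.

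Soluble guanylate cyclase is an enzyme of 1 alpha and 1 beta subunit whose beta subunit carries a haem that binds nitric oxide, and it makes the second messenger cGMP. A second route to cGMP runs through the natriuretic peptide receptors NPR1 and NPR2, which span the cell membrane and are guanylate cyclases themselves, while NPR3 binds the same peptides and clears them. cGMP is read by the protein kinases PRKG1 and PRKG2 and broken down by phosphodiesterases such as PDE5A. In the skeleton, C-type natriuretic peptide acting through NPR2 and PRKG2 drives growth plate cartilage, and NPR3 limits it.

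The arrays were hybridised with RNA of 6 primary lines of canine osteosarcoma, a malignant bone tumour, 1 array per line. Lines that grew as tumours once transplanted into mice were UWKOS1, UWKOS3 and UWKOS7, the tumorigenic group (n = 3). UWKOS2, UWKOS6 and UWKOS8 gave no tumours and form the non-tumorigenic group (n = 3). The question is which transcripts differ between lines with and without that capacity. The RNA was that of the lines in culture and not of tumours in the mice, all grown in the same medium with 10% serum to about 70 to 80% confluency, and the study had no normal or reference line. Each line is a single culture, the labels give neither the dog nor the passage, and the spread within a group is the spread between lines. Fewer cells expressing a gene and less RNA per cell cannot be told apart in such bulk RNA.

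Values are log2 probe set values as deposited, differences are tumorigenic minus non-tumorigenic, and 1 unit is a doubling. Array medians lay between 6.03 and 6.05. Only probe sets whose mean over the 6 arrays reached 6.07, the median of all probe sets, were tested; a value under it is not known to lie above background. The osteoblast lineage markers COL1A1, COL1A2 and SPARC lay between 12.28 and 14.60 in all 6 lines, while ALPL and IBSP lay below the filter and SP7 had no probe set of its own. RUNX2 and BGLAP of the same list lay near the filter value, at 5.84 to 6.52 and 5.32 to 6.64. SPP1 stood above that value in UWKOS1 alone. Endothelial, cartilage and haematopoietic lists averaged between 5.62 and 7.05 in every line, which mixes dim and brighter genes. The endothelial CDH5 read 7.34 to 7.72 and KDR 6.12 to 8.25 across the lines. The cartilage gene COL9A1 read 7.21 to 7.85 and the haematopoietic LAPTM5 7.52 to 8.14. The 7.05 was the cartilage list in UWKOS8, where ACAN read 9.56 and COL2A1 7.08. In the other lines ACAN read 5.08 to 5.99 and COL2A1 4.55 to 5.23. The cartilage factor SOX9 was lowest in UWKOS8, at 5.41. The mean log2 difference between the 3′ and 5′ GAPDH control probe sets, a sign of RNA or cRNA integrity, was 0.64 to 0.84 in the tumorigenic lines, against 0.78 in UWKOS2, 1.00 in UWKOS6 and 1.44 in UWKOS8. The same measure for actin was 0.39 to 0.77 in the tumorigenic lines, against 0.46 in UWKOS2, 2.10 in UWKOS6 and 1.52 in UWKOS8. UWKOS6 and UWKOS8 thus stood apart on both controls, and the part of this in the results below was not tested. Where a value without them is given, UWKOS2 alone stands for the non-tumorigenic group.

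Of the 19 member probe sets, 7 reached the filter value and 12 stayed below it. The 7 belonged to GUCY1B1 (1 probe set), NPR2 (3) and NPR3 (3), so that for 6 of the 9 genes no probe set was tested. With limma, 1 of the 7, on GUCY1B1, lay past an adjusted p of 0.05 as higher and 0 as lower; the unadjusted 95% interval lay below 0 for the 3 of NPR3. The choice of the family fixed the count for GUCY1B1, whose probe set also reached the filter through its tumorigenic values alone, so nothing is read from it. Over all 21462 tested probe sets, 7.28% passed as higher and 4.74% as lower. All 3 tumorigenic lines lay above all 3 non-tumorigenic lines on 3 of the 19 member probe sets and below them on 4. Over all 42924 probe sets that held for 13.9% and 15.3%. The median difference was -0.21 over the 19 member probe sets and -0.04 over all 42924.

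**Figure D1:**
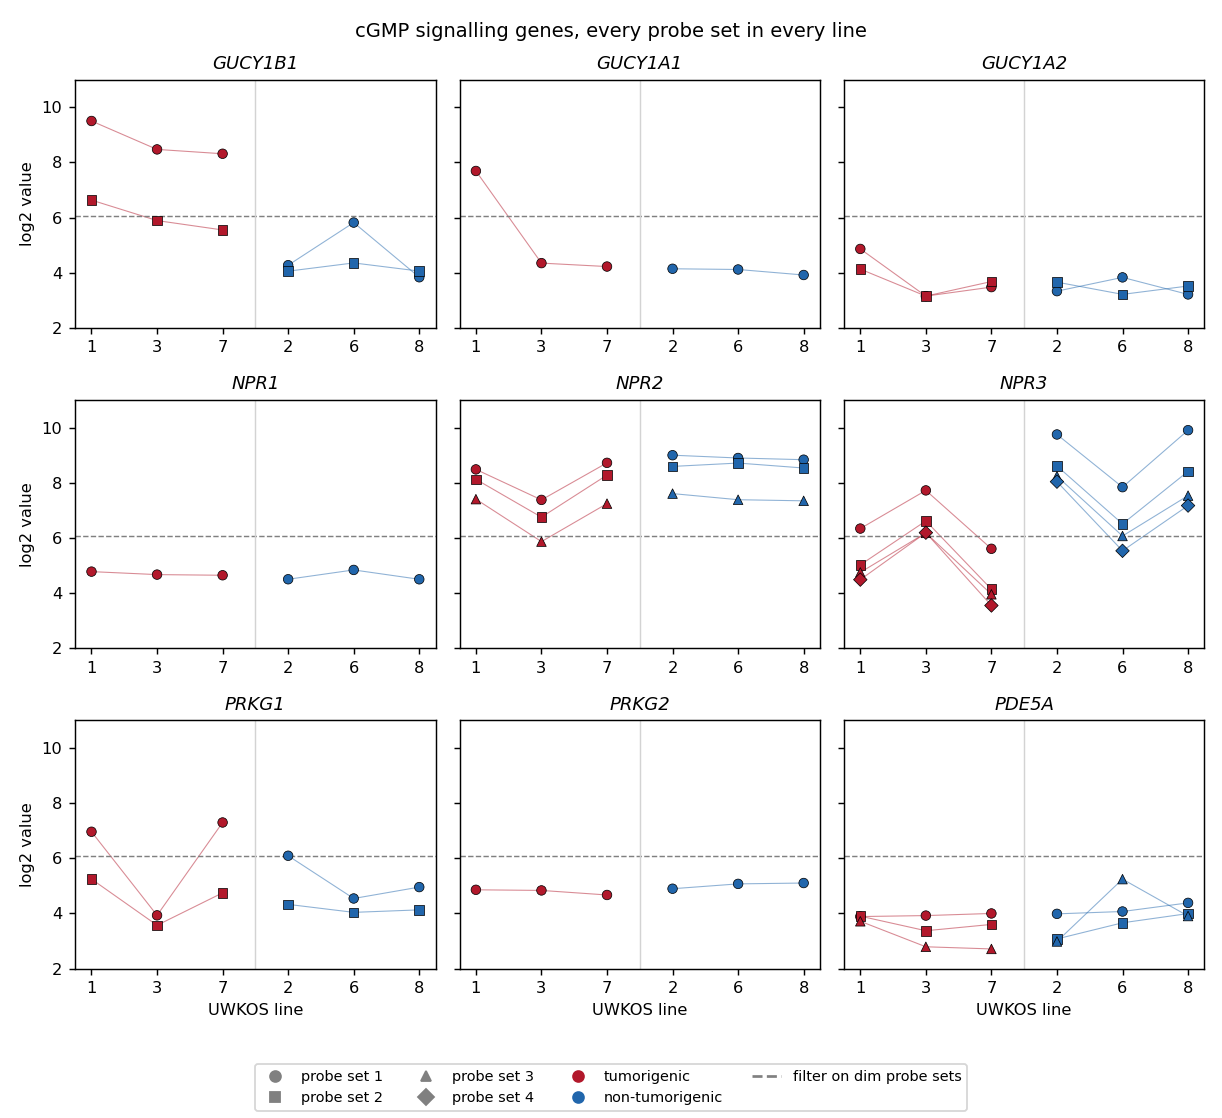
Log2 value (vertical axes) of the 19 member probe sets in each line, 1 panel per gene, with tumorigenic lines on the left and non-tumorigenic lines on the right; thin lines join the points of 1 probe set within a group, and the dashed line is the filter at 6.07. GUCY1B1 separates the groups on both probe sets, GUCY1A1 is high in UWKOS1 alone, and UWKOS3 and UWKOS6 meet on NPR3.

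GUCY1B1, the beta 1 subunit and the haem carrier, was the member with the largest difference. Its brighter probe set read 9.50 in UWKOS1, 8.47 in UWKOS3 and 8.32 in UWKOS7, against 4.27 in UWKOS2, 5.82 in UWKOS6 and 3.84 in UWKOS8. The lowest tumorigenic line lay well above the highest non-tumorigenic line, and all 3 non-tumorigenic values fell under the filter value, so the size of the difference is uncertain. The means were 8.76 ± 0.65 in the tumorigenic lines and 4.64 ± 1.04 in the non-tumorigenic lines (SD, n = 3 each). The difference was 4.12 with an SE of 0.57 and a 95% interval of 2.75 to 5.50, or 17.4-fold.

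The second GUCY1B1 probe set gave the same split at lower values. It read 6.63, 5.89 and 5.55 in UWKOS1, UWKOS3 and UWKOS7, against 4.06, 4.35 and 4.06 in UWKOS2, UWKOS6 and UWKOS8. On both probe sets UWKOS1 was the highest line, followed by UWKOS3 and UWKOS7, and UWKOS6 was the highest non-tumorigenic line. The difference was 1.87 with an SE of 0.29, less than on the brighter probe set, and its mean lay below the filter. UWKOS2, whose transcript-end ratios lay within the tumorigenic range, read 4.27 and 4.06. Without UWKOS6 and UWKOS8, which leaves UWKOS2 as the only non-tumorigenic line, the differences were 4.49 on the brighter probe set and 1.97 on the other. With the GAPDH end ratio as a covariate they were 3.62 and 1.72. With any 1 line left out they ranged from 3.72 to 4.71 and from 1.56 to 2.11.

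The alpha subunits did not follow this pattern. GUCY1A1, the alpha 1 partner of GUCY1B1, read 7.69 in UWKOS1, 4.35 in UWKOS3 and 4.22 in UWKOS7, against 4.14, 4.12 and 3.92 in UWKOS2, UWKOS6 and UWKOS8. Only UWKOS1 stood above the filter value. UWKOS3 and UWKOS7 lay just above the non-tumorigenic lines, so the groups did not overlap. The difference was 1.36 with an SE of 0.92, its 95% interval ran from -0.88 to 3.60, and without UWKOS1 it was 0.23. A gap of this size, 3.34 above every other line, was found on 66 of 42924 probe sets in UWKOS1 (0.154%) and on 1 to 11 in each other line.

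GUCY1A2, the alpha 2 subunit, was dim on both of its probe sets. The first read 4.86, 3.15 and 3.48 in UWKOS1, UWKOS3 and UWKOS7, against 3.33, 3.83 and 3.21 in UWKOS2, UWKOS6 and UWKOS8. The second read 4.13, 3.15 and 3.68 in the tumorigenic lines, in the same order, and 3.66, 3.21 and 3.52 in the non-tumorigenic lines. UWKOS1 was again the highest line on both, and the groups overlapped. The differences were 0.37 (SE 0.46) and 0.19 (SE 0.27), and -0.14 and -0.05 without UWKOS1. The alpha 1, alpha 2 and beta 1 subunits thus each had their highest value of the 6 lines in UWKOS1, as 18.5% of all 15115 genes did. For GUCY1A2 that value lay under the filter value. Its gap on the first probe set, 1.03 above every other line, was found on 558 probe sets in UWKOS1 (1.3%). In UWKOS3 and UWKOS7 GUCY1B1 was high while the probe sets of both alpha subunits stayed at or below 4.35.

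GUCY1A1 and GUCY1B1 are neighbours in the dog: the RefSeq table of assembly UU_Cfam_GSD_1.0 lists 0 protein-coding genes between them. MAP9, which encodes a microtubule-associated protein, read 7.83, 7.42 and 7.58 on its brighter probe set in UWKOS1, UWKOS3 and UWKOS7, against 8.59, 8.35 and 8.03 in UWKOS2, UWKOS6 and UWKOS8. The tumorigenic lines were all lower there, which held for 15.3% of all probe sets, but overlapped with the others on its second probe set. ASIC5, a channel gene next to GUCY1B1, read 3.54, 3.62 and 3.54 in the tumorigenic lines, in that order, and 3.20, 3.37 and 3.40 in the non-tumorigenic lines. Its tumorigenic lines were all higher, as for GUCY1B1, but by small margins and at dim values. MAP9 is the protein-coding gene 3 places before GUCY1A1, and the receptor gene NPY2R lies 5 places before it. NPY2R read 4.05, 4.49 and 4.47 in the tumorigenic lines, against 4.55, 4.55 and 4.68 in the non-tumorigenic lines. Its tumorigenic lines were all lower, as on 15.3% of all probe sets, by a small margin and at dim values. TDO2, for tryptophan dioxygenase, stayed between 2.30 and 3.13 with overlapping groups on its 3 probe sets.

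Among the receptors, NPR3 differed most and was lower on average in the tumorigenic lines. NPR3 lacks a cyclase domain, takes natriuretic peptides out of circulation and couples to inhibitory G proteins. Its brightest probe set read 6.34 in UWKOS1, 7.72 in UWKOS3 and 5.61 in UWKOS7, against 9.75 in UWKOS2, 7.84 in UWKOS6 and 9.91 in UWKOS8. The tumorigenic lines were all lower, but UWKOS3 and UWKOS6 differed by little. The means were 6.56 ± 1.08 in the tumorigenic lines and 9.17 ± 1.15 in the non-tumorigenic lines (SD, n = 3 each), a difference of -2.61 with an SE of 0.73 and a 95% interval of -4.36 to -0.87.

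The other 3 NPR3 probe sets showed the same order of lines at the bottom, UWKOS7 and then UWKOS1. The second by brightness read 5.02, 6.62 and 4.14 in UWKOS1, UWKOS3 and UWKOS7, against 8.61, 6.51 and 8.41 in UWKOS2, UWKOS6 and UWKOS8. The third read 4.75, 6.18 and 3.96 in the tumorigenic lines, in that order, and 8.24, 6.07 and 7.53 in the non-tumorigenic lines. The fourth, below the filter, read 4.49, 6.19 and 3.55 in the tumorigenic lines and 8.04, 5.53 and 7.17 in the non-tumorigenic lines. On all 3 the groups overlapped, because UWKOS3 lay above UWKOS6. The differences were -2.59 (SE 0.79), -2.32 (SE 0.73) and -2.17 (SE 0.87). The identifiers of the 4 NPR3 probe sets place all but the second in 1 transcript cluster, so they are not separate measurements.

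NPR2, the receptor cyclase for C-type natriuretic peptide, lay above the filter value on all 3 of its probe sets, except for 1 value in UWKOS3. The brightest read 8.49, 7.38 and 8.72 in UWKOS1, UWKOS3 and UWKOS7, against 9.0, 8.90 and 8.84 in UWKOS2, UWKOS6 and UWKOS8. The second read 8.13, 6.75 and 8.28 in the tumorigenic lines, in that order, and 8.59, 8.72 and 8.54 in the non-tumorigenic lines. The third read 7.41, 5.87 and 7.24 in the tumorigenic lines, against 7.61, 7.39 and 7.35 in the non-tumorigenic lines. The non-tumorigenic lines lay close together, and UWKOS3 was the lowest line on every NPR2 probe set. The differences were -0.72 (SE 0.36), -0.90 (SE 0.41) and -0.61 (SE 0.41), and each 95% interval included 0. Without UWKOS3 they were -0.31, -0.41 and -0.12. On the second probe set UWKOS3 lay 1.37 below every other line, a gap found on 166 probe sets in UWKOS3 (0.387%) and on 26 to 132 in the others. The groups did not overlap on the brightest probe set and on the second, which share a transcript cluster by their identifiers.

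NPR1, the receptor cyclase for atrial and B-type natriuretic peptides, was dim in every line. It read 4.78, 4.67 and 4.65 in UWKOS1, UWKOS3 and UWKOS7, against 4.50, 4.84 and 4.50 in UWKOS2, UWKOS6 and UWKOS8. The groups overlapped, with a difference of 0.08 (SE 0.14) and a 95% interval of -0.25 to 0.42.

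**Figure D2:**
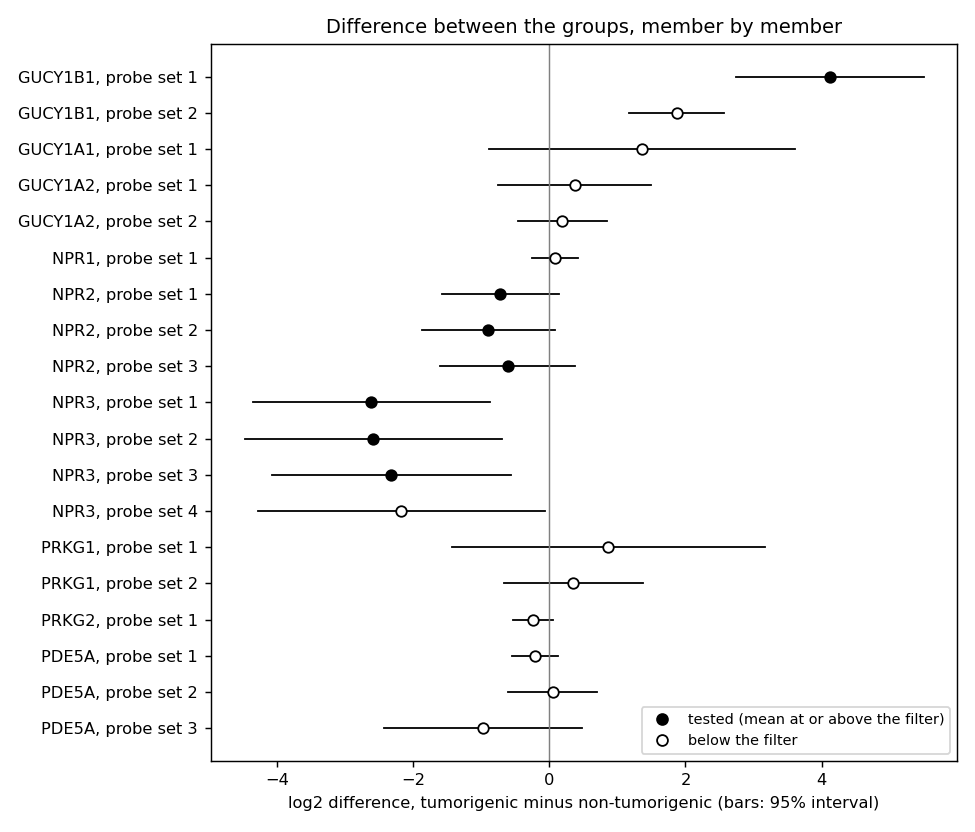
Difference (tumorigenic minus non-tumorigenic, log2, horizontal axis) of each of the 19 member probe sets, with its 95% interval from limma, filled where the probe set was tested and open where it lay below the filter. The 2 GUCY1B1 probe sets, at 4.12 and 1.87, lie right of 0 with intervals clear of it; the 4 of NPR3 lie left of 0, between -2.61 and -2.17; the members were chosen with this contrast known.

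PRKG1 varied more within the tumorigenic group than between the groups. The gene, which encodes the cGMP-dependent kinase of smooth muscle and platelets, read 6.96, 3.93 and 7.30 on its brighter probe set in UWKOS1, UWKOS3 and UWKOS7, against 6.09, 4.54 and 4.95 in UWKOS2, UWKOS6 and UWKOS8. Its other probe set read 5.24, 3.57 and 4.75 in the tumorigenic lines, in that order, and 4.33, 4.04 and 4.13 in the non-tumorigenic lines. UWKOS3 was the lowest and UWKOS1 or UWKOS7 the highest line on both, so the tumorigenic lines enclosed the others. The differences were 0.87 (SE 0.95) and 0.36 (SE 0.42), and both means lay below the filter. They moved with single lines: they were 1.93 and 0.83 without UWKOS3, 0.42 and -0.01 without UWKOS1, and 0.25 and 0.24 without UWKOS7. Without UWKOS2 and without UWKOS6 the brighter probe set gave 1.32 and 0.54, and without both UWKOS6 and UWKOS8 the pair gave -0.03 and 0.19.

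PRKG2, the membrane-bound kinase of growth plate cartilage and intestine, read 4.86, 4.83 and 4.67 in UWKOS1, UWKOS3 and UWKOS7, against 4.89, 5.07 and 5.10 in UWKOS2, UWKOS6 and UWKOS8. All tumorigenic lines were lower, by margins of a few hundredths between UWKOS1 and UWKOS2. The difference was -0.24 (SE 0.12), with a 95% interval of -0.53 to 0.06, and every value was dim.

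PDE5A, the cGMP-specific phosphodiesterase that sildenafil blocks, lay below the filter on all 3 of its probe sets. The brightest read 3.89, 3.92 and 4.0 in UWKOS1, UWKOS3 and UWKOS7, against 3.98, 4.07 and 4.38 in UWKOS2, UWKOS6 and UWKOS8. The second read 3.90, 3.37 and 3.60 in the tumorigenic lines, in that order, and 3.07, 3.66 and 3.99 in the non-tumorigenic lines. The third read 3.71, 2.79 and 2.71 in the tumorigenic lines, against 2.98, 5.24 and 3.90 in the non-tumorigenic lines. UWKOS8 was the highest line on the brightest and the second probe set, and UWKOS6 on the third. No value reached the filter value, and the groups overlapped on each probe set. The differences were -0.21 (SE 0.14), 0.05 (SE 0.27) and -0.97 (SE 0.60), so the probe sets did not share a direction. The second turned to -0.03 with each array centred on its 75th percentile, and the third was 0.09 without UWKOS6 and UWKOS8.

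The genes around the family in the pathway were taken from 5 lists of 81 genes, none of them members. Of these, 73 had a probe set of their own and 40 passed the filter. With limma, adjusted over 9145 genes each represented by its brightest probe set, 1 of the 40 rose, 4 fell and 35 did not pass. Over all 9145 genes 7.5% passed as higher and 4.63% as lower. The median difference was -0.06 over the 40 and 0.03 over all genes tested.

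**Figure D3:**
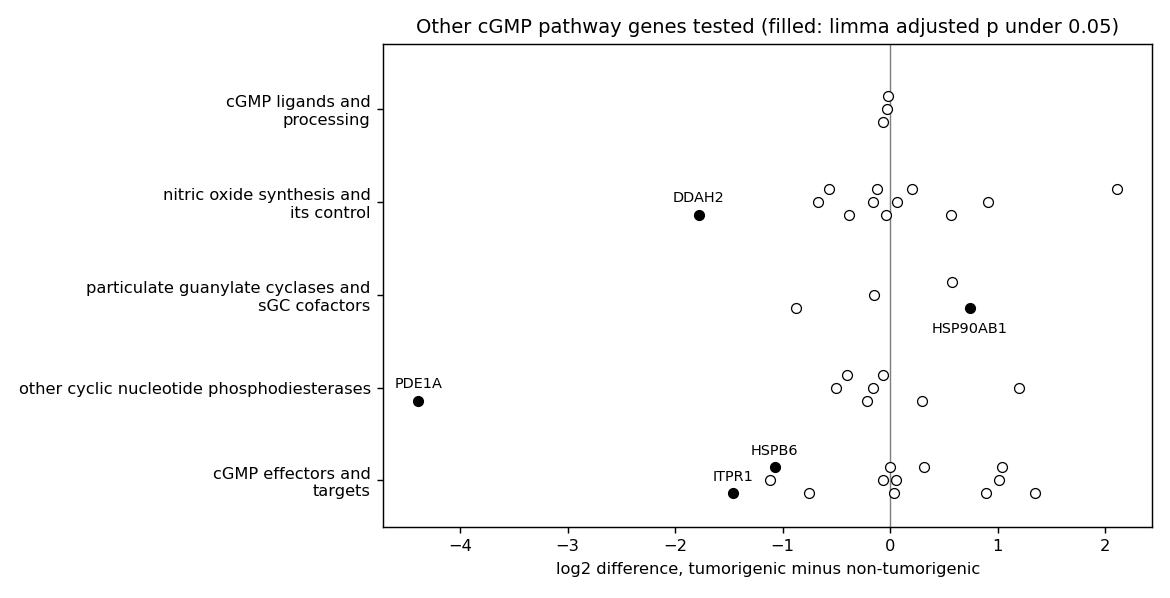
Difference (tumorigenic minus non-tumorigenic, log2, horizontal axis) of the 40 tested pathway genes, 1 row per list, with genes past a limma adjusted p of 0.05 filled and named. PDE1A lies farthest left at -4.39, and HSP90AB1, at 0.74, is the named gene right of 0.

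Enzymes that make or shape nitric oxide had 12 tested genes, of which 1 fell and 11 did not pass. The gene that fell was DDAH2, of the hydrolase family that breaks down methylarginine inhibitors of nitric oxide synthases. It read 8.28, 8.52 and 9.23 in UWKOS1, UWKOS3 and UWKOS7, against 9.65, 11.21 and 10.51 in UWKOS2, UWKOS6 and UWKOS8, a difference of -1.78 (SE 0.44, limma adjusted p = 0.0488). Its other tested probe sets gave smaller differences of -1.16 and -0.31 that did not pass, and a probe set below the filter gave -0.09. DDAH2 did not pass with no filter (limma adjusted p = 0.0704) or as the mean of its probe sets (difference -0.83, limma adjusted p = 0.0812). The synthases NOS1, NOS2 and NOS3 all lay below the filter, between 3.73 and 5.47 across the lines. ARG2, the mitochondrial arginase that competes for arginine, read 9.97, 10.56 and 6.60 in the tumorigenic lines, in that order, and 7.51, 5.87 and 7.41 in the non-tumorigenic lines (difference 2.11, SE 1.07, limma adjusted p = 0.229). UWKOS7 lay within the non-tumorigenic range, and a second ARG2 probe set differed by -0.28. ASL, which makes arginine, differed by -0.67 (limma adjusted p = 0.153).

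Of the ligands and their processing enzymes, 3 genes were tested; with limma 0 passed, and 0 had an unadjusted p under 0.05. FURIN, a convertase of natriuretic peptide precursors, MME, the neprilysin that degrades the peptides, and GUCA2A, the guanylin precursor, differed by -0.02, -0.07 and -0.03. The peptide genes NPPB and NPPC lay below the filter, at 4.84 to 5.35 and 5.90 to 6.17 across the lines.

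Among the cyclase cofactors and other particulate cyclases, 1 of 4 tested genes rose and 3 did not pass. HSP90AB1, a form of the chaperone HSP90 that helps the beta 1 subunit take up haem, read 13.89, 13.78 and 13.94 in UWKOS1, UWKOS3 and UWKOS7, against 13.12, 13.10 and 13.18 in UWKOS2, UWKOS6 and UWKOS8. The values within each group lay close together, and the groups were apart by 0.74 (SE 0.14, limma adjusted p = 0.0274). Its 2 other tested probe sets differed by 0.60 and 1.24, and both passed among the probe sets. Its paralogue HSP90AA1 differed by 0.58 (SE 0.21, limma adjusted p = 0.116). CYB5R3, the reductase that keeps the haem of the cyclase in its nitric oxide-sensitive state, read 10.19, 10.72 and 10.28 in the tumorigenic lines, in that order, and 11.11, 11.71 and 10.99 in the non-tumorigenic lines. On this probe set the groups did not overlap, as on 15.3% of all probe sets in this direction, and the difference of -0.87 did not pass (SE 0.25, limma adjusted p = 0.0721). Another tested CYB5R3 probe set differed by -0.27 with overlapping groups (limma adjusted p = 0.525). GUCY2C, GUCY2D and GUCY2F, the intestinal and retinal cyclases, lay below the filter.

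Phosphodiesterases other than PDE5A had 8 tested genes, of which 1 fell and 7 did not pass. PDE1A, a calmodulin-dependent enzyme that breaks down cGMP as well as cAMP, read 6.22, 6.36 and 4.03 in UWKOS1, UWKOS3 and UWKOS7, against 10.59, 10.32 and 8.87 in UWKOS2, UWKOS6 and UWKOS8. All non-tumorigenic lines were bright and all tumorigenic lines were near or below the filter value. PDE1A thus reached the filter through its non-tumorigenic values, and the size of its difference is uncertain. The difference was -4.39 (SE 0.74, limma adjusted p = 0.0224), with a 95% interval of -6.17 to -2.61. The other PDE1A probe set, below the filter, differed by -2.19. All 3 tumorigenic lines lay below all 3 non-tumorigenic lines, which held for 15.3% of all probe sets. Any such gene runs opposite to GUCY1B1, which was picked on the same contrast, so nothing is read from that. PDE8A, specific for cAMP, read 8.36, 8.32 and 8.40 in the tumorigenic lines, in that order, and 8.0, 6.57 and 6.93 in the non-tumorigenic lines (difference 1.19, limma adjusted p = 0.0796). PDE6H, an inhibitory subunit of cone photoreceptors, differed by -0.40 (limma adjusted p = 0.178).

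Of 13 tested effectors and targets of cGMP, 2 fell and 11 did not pass. ITPR1, the inositol trisphosphate receptor that releases calcium and is restrained by PRKG1, read 5.57, 6.20 and 6.04 in UWKOS1, UWKOS3 and UWKOS7, against 7.49, 7.44 and 7.26 in UWKOS2, UWKOS6 and UWKOS8. The difference was -1.46 (SE 0.21, limma adjusted p = 0.0168). HSPB6, a small heat shock protein phosphorylated by cyclic nucleotide-dependent kinases, read 5.80, 6.14 and 6.04 in the tumorigenic lines, in that order, and 6.67, 7.07 and 7.46 in the non-tumorigenic lines. Its groups were apart by -1.07 (SE 0.24, limma adjusted p = 0.0385). The tumorigenic means of ITPR1 and HSPB6, 5.94 and 5.99, lay under the filter value, which both genes reached through the non-tumorigenic lines. The sizes of these differences are thus uncertain. CSRP2, a LIM-domain protein of muscle, differed by 1.35 and just missed (limma adjusted p = 0.0605), while its other probe set differed by 1.44 and passed among the probe sets (limma adjusted p = 0.041).

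**Figure D4:**
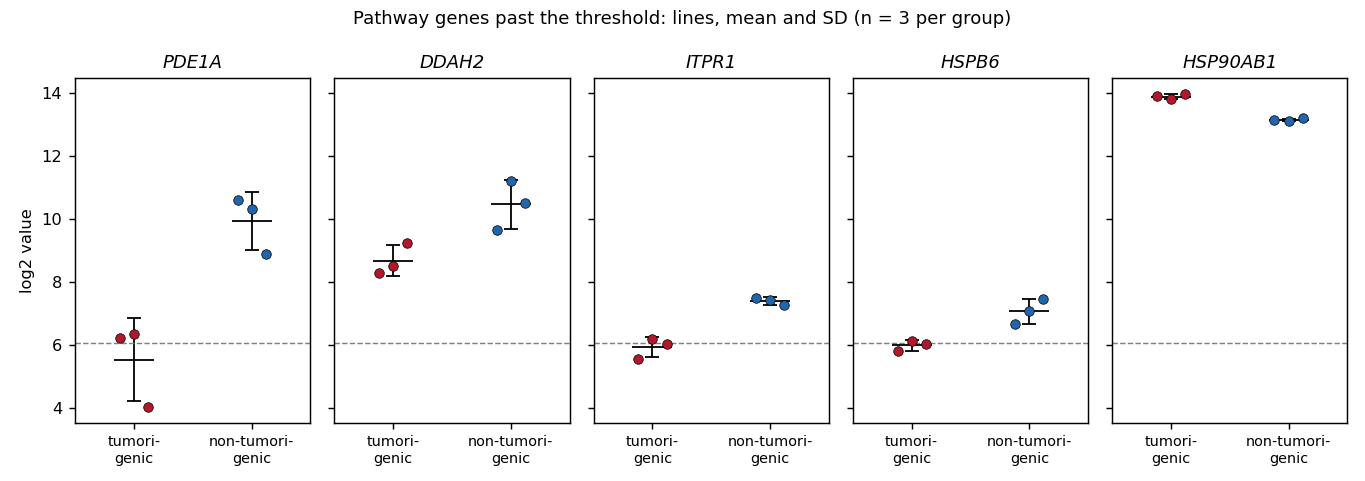
Log2 value (vertical axis) of the 5 pathway genes past a limma adjusted p of 0.05 in the tumorigenic lines (left) and the non-tumorigenic lines (right) of each panel; points are lines, bars the mean and SD (n = 3 each), and the dashed line is the filter at 6.07. The groups do not overlap on any of the 5, but the genes were picked by passing on this contrast, so nothing is read from that. HSP90AB1 is the one that is higher in the tumorigenic lines.

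The calls among pathway genes changed when lines were left out. Without UWKOS6, 0 of the 40 passed with limma and 10 had an unadjusted p under 0.05, while PDE1A differed by -4.19, ITPR1 by -1.44, HSPB6 by -1.07, DDAH2 by -1.41 and HSP90AB1 by 0.72. Without UWKOS1, without UWKOS8, without UWKOS3 and without UWKOS2, 2, 2, 3 and 4 passed, and without UWKOS7 8 did. ITPR1 and PDE1A were the 2 left without UWKOS1 and without UWKOS8, and PDE1A was lost without UWKOS2. With any 1 line left out, the differences ranged from -4.92 to -3.64 for PDE1A, from -1.59 to -1.28 for ITPR1, from -1.27 to -0.87 for HSPB6, from -2.18 to -1.41 for DDAH2 and from 0.71 to 0.79 for HSP90AB1. The part of the transcript-end ratios, which were higher in UWKOS6 and UWKOS8, was not tested. With both left out, UWKOS2 alone stood for the non-tumorigenic group. PDE1A, ITPR1 and HSP90AB1 then differed by -5.05, -1.56 and 0.76, and DDAH2 and HSPB6 by -0.98 and -0.68. In that fit 0 pathway genes passed with limma, 5 at an unadjusted p under 0.05. With the GAPDH end ratio as a covariate 0 passed with limma, 8 at an unadjusted p under 0.05.

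Another pathway gene was high in UWKOS1 alone. RGS2, a regulator of G protein signalling that PRKG1 phosphorylates, read 13.47 in UWKOS1 and 8.43 to 9.44 in the other 5 lines; it was singled out after its values were seen. Its other probe sets read 11.52 and 12.01 in UWKOS1 and 6.66 to 7.62 in the other lines. A gap of this size, 4.02 above every other line on the brightest probe set, was found on 35 probe sets in UWKOS1 (0.0815%). RGS2 differed by 1.01 between the groups and did not pass. Of the markers, SPP1, the bone matrix protein osteopontin, showed the same kind of split, at 9.76 in UWKOS1 and 2.79 to 3.30 in the other lines. Of the 73 measured pathway genes, 21.9% were highest and 34.2% lowest in UWKOS1. Over all 15115 genes the shares in UWKOS1 were 18.5% and 26.7%.

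Because soluble guanylate cyclase and PRKG1 are known from smooth muscle and pericytes, markers of those cells are given beside the family. The 10 smooth muscle markers averaged 7.91 in UWKOS1, 6.83 in UWKOS3 and 8.98 in UWKOS7, against 9.33 to 9.48 in the non-tumorigenic lines. The tumorigenic lines were lower and more spread. This is the opposite direction to GUCY1B1, which was picked on the same contrast, so nothing is read from that. Of 8 tested smooth muscle genes, ACTG2, the enteric actin, fell by 3.19 (SE 0.52, limma adjusted p = 0.0214) and 7 did not pass. ACTA2, the alpha smooth muscle actin, read 11.44, 3.83 and 12.72 in UWKOS1, UWKOS3 and UWKOS7, against 14.22, 14.21 and 14.30 in UWKOS2, UWKOS6 and UWKOS8. UWKOS3 was the lowest line on ACTA2, as on 17.4% of all 15115 genes. Of the family it was lowest on PRKG1, NPR2 and GUCY1A2, and not on the other members. TAGLN and CALD1, both actin-binding proteins, differed by -2.86 and -1.24 and did not pass. The list did not move as one: DES, for desmin, differed by 0.40, and CNN1, for calponin, and MYOCD, a transcriptional coactivator, had their highest values of the 6 lines, 11.94 and 6.68, in the tumorigenic line UWKOS7. The 7 pericyte markers averaged 4.94 to 5.17 in the tumorigenic lines and 5.18 to 5.36 in the non-tumorigenic lines. Of these MCAM was tested, with a difference of -0.09, and the defining markers RGS5, CSPG4 and PDGFRB lay at or below 6.22 in every line. With limma, 0 of the tested genes of the pericyte (1), osteoblast (5), endothelial (3), cartilage (2) and haematopoietic (3) lists passed; in that order 0, 2, 1, 0 and 1 had an unadjusted p under 0.05. Below the filter, 2 markers passed when no filter was used, the pericyte proteoglycan CSPG4 (difference -0.69, limma adjusted p = 0.0383) and the endothelial adhesion molecule PECAM1 (0.84, limma adjusted p = 0.0412). PECAM1 read 4.67, 4.88 and 5.17 in UWKOS1, UWKOS3 and UWKOS7, against 4.21, 3.97 and 4.02 in UWKOS2, UWKOS6 and UWKOS8. All its values were dim, and the rest of the endothelial list was mixed in direction. KDR differed by 1.11 and VWF by 0.05, while CDH5, TIE1, TEK and EMCN differed by -0.04, -0.10, -0.25 and -0.27. The part of these markers in the results of the family was not tested.

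The genes whose profile over the 6 lines was most like that of GUCY1B1 were found from the root mean square difference of log2 values, each gene centred on its own mean, among 9144 genes. The 5 closest were TKTL1, a transketolase-like protein (0.65), FBN2, a fibrillin of elastic fibres (0.68), SOX2, a transcription factor of stem cells (0.73), EPDR1, an ependymin-related protein (0.85), and FABP5, a fatty acid-binding protein (0.87). The median over all genes was 2.18 and the first percentile 1.42. TKTL1, the closest, read 8.75, 7.97 and 8.71 in UWKOS1, UWKOS3 and UWKOS7, against 4.0, 4.28 and 4.10 in UWKOS2, UWKOS6 and UWKOS8. EPDR1 read 10.12, 9.84 and 9.90 in the tumorigenic lines, in that order, and 4.35, 5.37 and 5.77 in the non-tumorigenic lines. Both split the groups as GUCY1B1 did. The measure uses the contrast by which GUCY1B1 was picked, so it is a description.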

How the data were processed

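Total RNA of 6 cultured lines was extracted with Trizol, and biotinylated cRNA from 10 µg of it went onto Affymetrix canine arrays, per the labels' protocols. The deposited table holds log2 values, 43035 rows by 6 arrays; the submitters' processing notes name MAS5 and no version. The columns have nearly equal quantiles, which plain MAS5 signals need not, so how the authors summarised and normalized them is not settled. Values were used as deposited; 0 sample columns were left out, and detection calls were not used.

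Names came from the platform annotation, brought up to date by gene identifier with RefSeq's UU_Cfam_GSD_1.0 table; 29254 probe sets had 1 symbol, 439 several, and 13231 were unnamed here. The 21462 probe sets with a mean of at least 6.07 were compared with limma 3.58.1 in R 4.3.3 (lmFit, eBayes, no covariate), with Benjamini-Hochberg adjustment over all of them at 0.05. At the gene level the brightest probe set stood for each of 9145 genes. Intervals of untested members come from the same fit without the filter. The fit was tested on simulated data. Figures were drawn with matplotlib 3.10.9.

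Members and lists were chosen with earlier results of these data known. Named were all members; of each pathway list, the genes past the threshold and the 3 of smallest p; of each marker list, those past the threshold and the 3 brightest; and the 5 genes most like the member with the largest difference. Not every gene so taken is printed where its list is given by range. Alternatives were 2 filters, 2 normalizations, 2 variance models, array weights, the GAPDH end ratio as a covariate, averaging probe sets of a gene, and fits without each line or without UWKOS6 and UWKOS8. The number of arrays limits the precision throughout.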

Additional observations from a re-analysis of the deposited data

How the results depend on the processing

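No paired analysis was possible because the replicate numbers follow accession order and pair no lines. The number of tested probe sets past the threshold with limma was 2580, and it was 3895 with array weights, 19 with the GAPDH covariate, 9 without both UWKOS6 and UWKOS8, and 52 to 3169 when 1 line was left out. It was lowest without UWKOS6 and highest without UWKOS7; without UWKOS8 it was 437, without UWKOS3 647, without UWKOS1 1141 and without UWKOS2 1343. Among member probe sets the count is fixed by the choice of the family on GUCY1B1 and supports nothing: 1 lay past the threshold, and 2 with no filter; 0 did with the upper-quartile filter, which leaves out GUCY1B1, with the GAPDH covariate and without both UWKOS6 and UWKOS8, where 0, 2 and 4 had an unadjusted p under 0.05. It was 1 to 1 when any 1 line was left out, and without the filter the dimmer GUCY1B1 probe set stayed past it in 2 of those 6 fits. GUCY1B1 differed by 3.62 with the GAPDH covariate and by 4.49 without both lines. Pathway genes past the threshold numbered 5, and 3 with the upper-quartile filter, 0 with the GAPDH covariate (8 unadjusted), 0 without both lines (5 unadjusted) and 0 to 8 when 1 line was left out. Reversed signs were seen for FURIN, MME and GUCA2A, none of which passed anywhere: FURIN was 0.0015 with the GAPDH covariate, 0.0322 without both lines, 0.20 as the mean of its probe sets and -0.26 to 0.13 without 1 line; MME was 0.19, 0.0154 and -0.32 to 0.39 in the covariate fit, the fit without both lines and those without 1 line; GUCA2A was 0.0635, 0.0218 and -0.13 to 0.0588. Of 256 comparisons of single member probe sets with an alternative, 250 moved by less than the spread between lines within a group. That count was largely fixed in advance and is no sign of stability. Leaving out 1 line cannot move a difference by that spread, and the filters and variance models do not move it at all. GUCY1A1, at 1.36 with all lines and 0.23 without UWKOS1, counts among the 250. The sign changed in 11 of the 256 comparisons, on 7 probe sets of GUCY1A2, PRKG1 and PDE5A, none of which passed anywhere. Of 231 for the 15 named pathway genes, 182 kept direction and side of the threshold, 30 lost the call, 6 gained it and 13 reversed. Fits without both UWKOS6 and UWKOS8 assume that UWKOS2 varies like the tumorigenic lines. The cause of these shifts was not tested. Without detection calls, dim values cannot be placed above or below background.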
